A study of Mus musculus with 6 samples.

Results

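The ligands and receptors of the TNF superfamily were followed in the aorta of Apoe-/- mice, which lack apolipoprotein E, a lipid carrier of the blood, and develop high plasma cholesterol and atherosclerosis. Members were taken by gene symbol: names beginning Tnfsf or Tnfrsf followed by a digit, and Tnf, Lta, Ltb, Ltbr, Cd40, Cd40lg, Fas, Fasl, Cd27, Cd70, Eda2r and Ngfr. This gave 44 of the 47643 genes in the count table, of which 17 are ligands, 26 are receptors and 1, Tnfsf13os, is an antisense RNA of the Tnfsf13 gene that was caught by its name. Both groups carried the Apoe deletion and differed in treatment. The EPO group was injected into the peritoneum with 5000 IU per kg per day of recombinant human erythropoietin (EPO), the hormone that drives red cell production, and the Vehicle group received saline, each for 4 weeks. Whole aorta was sequenced in 3 libraries per group, and the labels used here give neither age nor sex. Whether each library came from its own animal is not stated, and p-values here speak only of the spread among 6 libraries, which may be technical.

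TNF superfamily ligands are mostly membrane proteins of immune and stromal cells that act as trimers, either on a neighbouring cell or after being shed by a protease. Their receptors bind TRAF adapters, which switch on the NF-kB transcription factors, and those with a death domain can instead start apoptosis or necroptosis through caspases or the kinase Ripk3. In the artery wall the family is known for its part in the inflammation of plaque, for contacts between leukocytes, and for the balance of RANKL and its decoy receptor in calcification.

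The total count ran from 23278649 to 27904322 in the Vehicle libraries and from 38502430 down to 28798632 in the EPO libraries. Levels are given as CPM, counts scaled to a common library size over the genes tested with the TMM method. Between genes they are compared per length, as CPM per kilobase of exon. Smooth muscle, the main cell of the aorta, was present by its markers, with a summed level of 7 genes from 19600 to 27900 CPM in Vehicle and from 7150 to 9140 CPM in EPO. Marker sums of other cells also differed between the groups, and some libraries stood apart. White adipocyte genes summed to between 2770 and 6840 CPM in Vehicle and between 1830 and 2550 CPM in EPO. Mast cell genes summed to between 53.3 and 64.9 CPM in Vehicle and between 23.4 and 40.6 CPM in EPO. The summed level of 10 macrophage markers was 1750, 3300 and 3580 CPM in Vehicle 1, 2 and 3 and 8550, 4270 and 3880 CPM in EPO 1, 2 and 3, with EPO 1 the highest. Skeletal muscle genes summed to between 6.1 and 13.9 CPM in Vehicle and to 1130, 2710 and 312 CPM in EPO 1, 2 and 3. Neuronal genes were high in Vehicle 3, where Th, the enzyme of noradrenaline synthesis, stood at 30.4 CPM against 1.3 and 0.194 CPM in Vehicle 1 and 2. The summed level of 8 neutrophil genes was 20.4, 23 and 61.9 CPM in Vehicle 1, 2 and 3 and 56.2, 96.8 and 527 CPM in EPO 1, 2 and 3, so that EPO 3 held by far the most. Of the 7 tested 2 rose, where 12.9% of all genes tested did. They were Mpo (log2 fold change 3.88, adjusted p = 0.00624) and Csf3r (2.11, 0.0376), the latter not without Vehicle 1, 2 or 3 or EPO 3 (adjusted p from 0.0501 to 0.136). The part of neutrophils in the levels of the family was not tested. In bulk tissue, a change in the number of cells of a type cannot be told apart from a change in RNA per cell.

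Members of the family that differed between the groups were higher with EPO. Enough counts for a test were found for 39 of the 44 members, and 12 of them, or 30.8%, rose (edgeR quasi-likelihood F test, Benjamini-Hochberg threshold 0.05). Among all 16522 genes tested, 12.9% were higher, 10.1% were lower and 23.0% were called in either direction. Of the family 0 members were called lower by edgeR, 2 (Tnfrsf12a and Fas) were lower at an unadjusted p under 0.05, DESeq2 and limma-voom called 0 lower, and limma-voom with sample weights called 1, Tnfsf12, as did edgeR without EPO 1. The filter on low counts was passed through the 3 EPO libraries, with fewer than 3 Vehicle libraries at its minimum, by 8 of the 39 members: Tnfsf8, Tnfsf11, Tnfsf14, Tnfsf15, Tnfrsf8, Tnfrsf18, Cd27 and Fasl. Of these 4 were called, Tnfsf8, Tnfsf11, Tnfsf15 and Tnfrsf8. Tnfsf15 and Tnfrsf8 had 0 Vehicle libraries at the minimum. The 12 were the ligands Tnfsf11, Tnfsf8, Tnfsf15, Ltb and Tnf and the receptors Tnfrsf8, Tnfrsf23, Tnfrsf1b, Tnfrsf13b, Eda2r, Cd40 and Tnfrsf14. The median log2 fold change was 0.65 over the 39 members and 0.01 over all genes tested. Every EPO library lay above every Vehicle library for 19 members, where this held for 22.9% of all genes, and below for 2, where it held for 21.0%.

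The size of this count rested on which libraries were included. It was 5 without Vehicle 1 and 6 without Vehicle 2, and 5 in a fit without both EPO 1 and EPO 2, while the share of all genes called higher in those 3 fits was 5.49%, 6.30% and 6.14%. With EPO 3 as the lone EPO library, the spread comes from the Vehicle libraries, and EPO 3 is assumed to vary as they do. In the fits with 1 library left out, 5 members were called in all 6: Tnfsf11, Tnfsf8, Tnfrsf8, Tnfrsf23 and Tnfrsf1b.

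**Figure D1:**
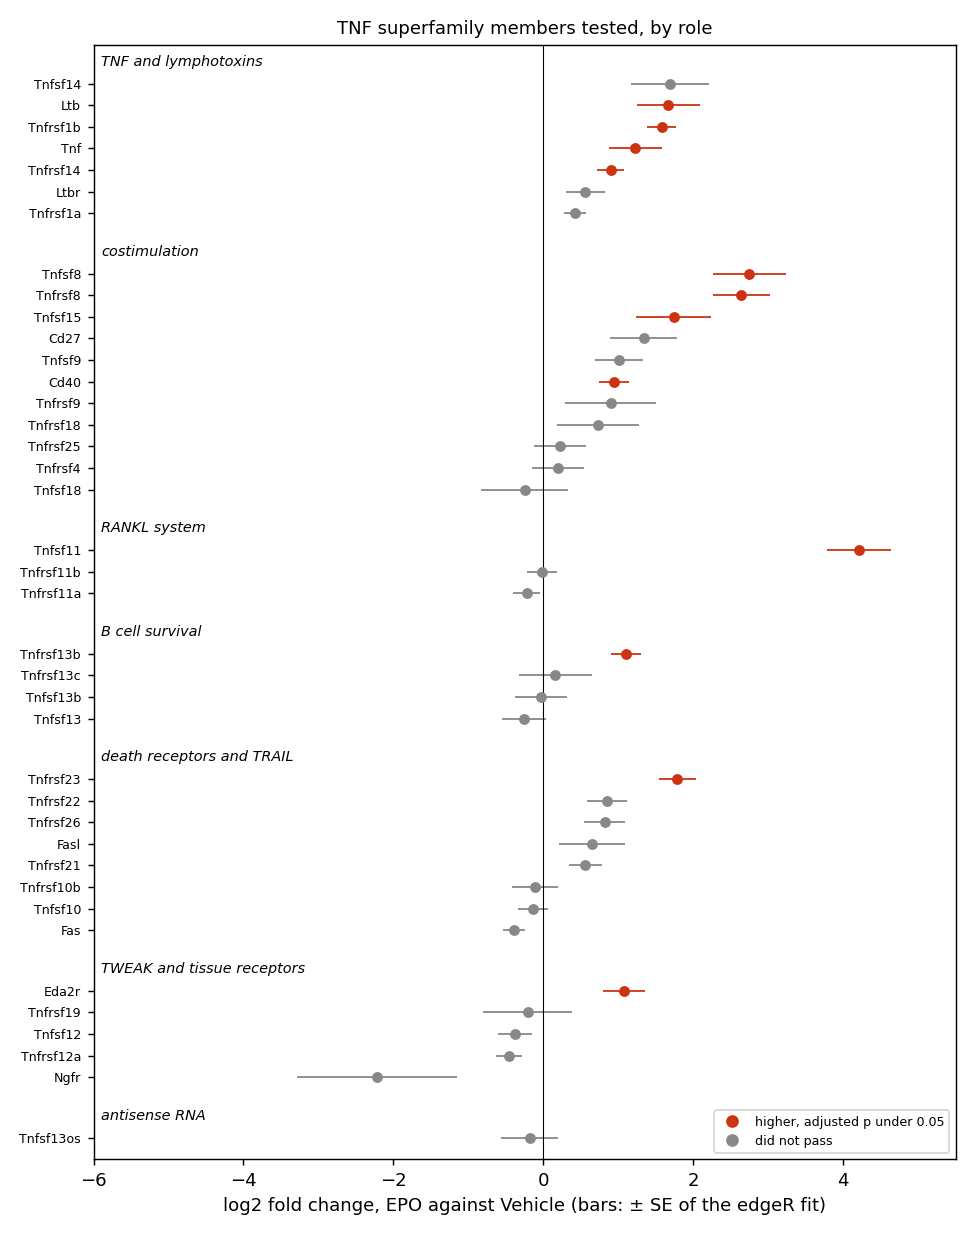
Log2 fold change of each tested member, EPO against Vehicle, with the standard error of the edgeR fit as bars, grouped by role. The 12 members called higher are in red and run from 0.90 for Tnfrsf14 to 4.21 for Tnfsf11, and Ngfr has the widest bar.

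Several members sit next to each other in the genome, in 14 neighbouring pairs, of which 3 had both members called higher and 7 had both with EPO above Vehicle in every library. Pairs in a row share a member. Of all genes tested, taken singly, 12.9% were called higher and 22.9% had EPO above Vehicle in every library. The share among neighbouring pairs of other genes was not measured. Tnfsf15 and Tnfsf8 lie 86.2 kb apart on chromosome 4 and both rose. Tnfrsf1b and Tnfrsf8 lie 20.3 kb apart on the same chromosome and both rose. In the histocompatibility region of chromosome 17, Ltb and Tnf, 3.06 kb apart, rose, and their neighbour Lta, with a group sum of 26 counts in either arm, was too scarce for a test. Tnfrsf26, Tnfrsf22 and Tnfrsf23 form a row on chromosome 7, with gaps of 6.08 and 16.1 kb. The EPO libraries lay above the Vehicle libraries for each of them, though Tnfrsf23 alone was called. On chromosome 6 the same was seen for Cd27, Ltbr and Tnfrsf1a, none of which passed. Among the other neighbours, the groups overlapped for Tnfrsf4 and Tnfrsf18 and for Tnfsf13os, Tnfsf13 and Tnfsf12. Tnfsf18, next to Tnfsf4, also overlapped, and Cd70, next to Tnfsf9, had 0 counts in every library.

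Promoter letters are shown for the member with the largest change, Tnfsf11, and for the neighbour pairs Tnfrsf8 with Tnfrsf1b and Ltb with Tnf. Each is the run of 250 bases before the transcription start in RefSeq (GRCm38.p6), written 5′ to 3′ on the strand of the gene. The windows are chr14:78308044-78308293 on the minus strand, chr4:145315165-145315414 on the minus strand, chr4:145246871-145247120 on the minus strand, chr17:35194257-35194506 on the plus strand and chr17:35202008-35202257 on the minus strand. Capitals mark matches to the NF-kB consensus decamer, to TTCNNNGAA, the form bound by STAT factors such as STAT5 downstream of the EPO receptor, and to TGANTCA, the AP-1 form, each on either strand, and to TATAAA on the gene's strand.
Tnfsf11: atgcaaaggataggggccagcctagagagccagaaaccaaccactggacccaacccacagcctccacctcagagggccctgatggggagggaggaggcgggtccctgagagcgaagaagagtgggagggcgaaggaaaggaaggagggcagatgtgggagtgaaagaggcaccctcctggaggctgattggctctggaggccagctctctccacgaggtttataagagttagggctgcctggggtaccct
Tnfrsf8: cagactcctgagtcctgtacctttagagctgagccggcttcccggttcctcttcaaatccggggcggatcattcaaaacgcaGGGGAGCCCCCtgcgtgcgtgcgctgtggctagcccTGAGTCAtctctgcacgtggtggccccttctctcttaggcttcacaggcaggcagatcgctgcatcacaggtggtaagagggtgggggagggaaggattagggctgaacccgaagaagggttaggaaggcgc
Tnfrsf1b: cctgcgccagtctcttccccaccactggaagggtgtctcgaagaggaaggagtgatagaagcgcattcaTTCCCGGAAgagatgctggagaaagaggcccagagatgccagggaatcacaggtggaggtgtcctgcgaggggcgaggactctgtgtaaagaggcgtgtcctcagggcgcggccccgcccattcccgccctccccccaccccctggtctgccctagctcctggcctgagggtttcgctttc
Ltb: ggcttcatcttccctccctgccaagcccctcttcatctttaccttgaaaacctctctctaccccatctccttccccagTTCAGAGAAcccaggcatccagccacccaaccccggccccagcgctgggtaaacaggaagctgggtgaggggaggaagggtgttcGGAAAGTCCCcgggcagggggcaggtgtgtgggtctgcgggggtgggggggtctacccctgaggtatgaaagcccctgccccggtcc
Tnf: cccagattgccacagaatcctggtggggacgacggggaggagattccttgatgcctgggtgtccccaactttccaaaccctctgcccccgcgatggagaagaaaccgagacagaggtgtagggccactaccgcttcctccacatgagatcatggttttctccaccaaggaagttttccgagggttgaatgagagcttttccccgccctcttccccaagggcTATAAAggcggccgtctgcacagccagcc
In the window of Tnfsf11 there was no match to these forms. The window of Tnfrsf8 held a pair of overlapping NF-kB matches from position -168 to -158 and TGAGTCA from -132 to -126, counted back from the start site. The window of its neighbour Tnfrsf1b held TTCCCGGAA from -181 to -173. Ltb had an NF-kB match, GGAAAGTCCC, from -87 to -78 and TTCAGAGAA from -172 to -164, and Tnf had TATAAA from -29 to -24. Of 33 members with a window in the table, 11 of them called higher, the NF-kB form was found in 4 (Ltb, Tnfrsf8, Tnfrsf9 and Tnfrsf25) and TTCNNNGAA in 8. The NF-kB form was in 2 of the 11 called members and in 2 of 20 that did not pass, and TTCNNNGAA in 2 of 11 and 5 of 20. TGANTCA was in 1 of 11 and 5 of 20, and TATAAA in 2 of 11 and 1 of 20. Of all 32851 windows, 7.25% held the NF-kB form, 7.02% TTCNNNGAA, 6.75% TGANTCA and 7.59% TATAAA. Counted by gene, as the members are, the forms were in 2225, 2197, 2113 and 2415 of 27025 genes. A match is a description of letters and shows no binding.

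Tnfrsf1a, the widely expressed death domain receptor of TNF, was the most abundant member per length in both groups, at 64.8 ± 7.45 CPM per kb in Vehicle and 86.6 ± 11.6 CPM per kb in EPO (SD, n = 3 each). In Vehicle it was followed by Tnfrsf12a (49.6), Ltbr (31.2), Fas (23.8), Tnfrsf11b (17.6), the ligand Tnfsf12 (15.1) and Tnfrsf1b (13.7 CPM per kb). The SDs of Fas, Tnfrsf11b, Tnfsf12 and Tnfrsf1b were 2.62, 4.51, 1.46 and 2.02. Tnfrsf11b, Tnfsf12 and Tnfrsf1b lay within reach of each other's spread. Fas lay within reach of Tnfrsf11b, but above Tnfsf12 and Tnfrsf1b beyond their spread. In EPO, Tnfrsf1b stood at 41.1 ± 8.98 CPM per kb, between Ltbr at 45.8 ± 18.9 and Tnfrsf12a at 36.1 ± 7.2, and these 3 did not differ beyond their spread. Most ligands were far lower: apart from Tnfsf12, the highest in Vehicle were Tnfsf10 at 3.34 ± 0.369 and Tnfsf13b at 2.49 ± 1.15 CPM per kb, and in EPO Ltb at 6.36 ± 3.14 and Tnfsf11 at 3.62 ± 1.11 CPM per kb.

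**Figure D2:**
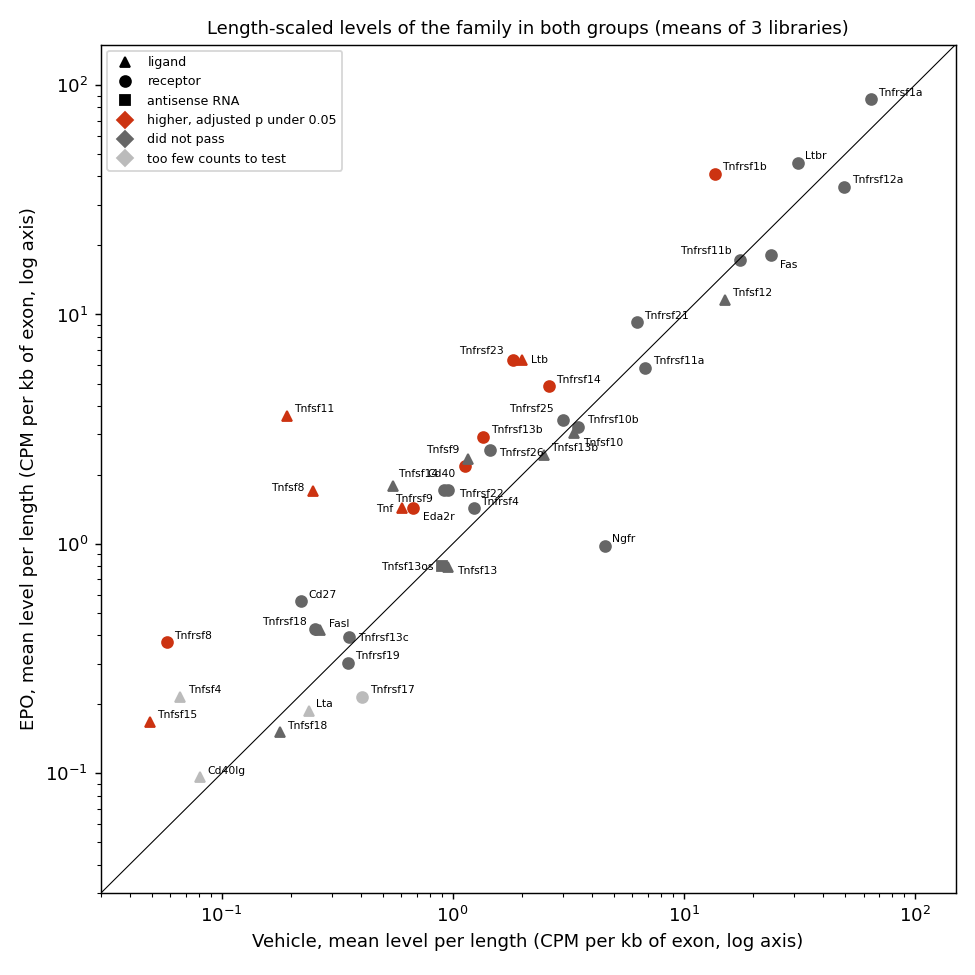
Mean level per length in EPO (vertical) against Vehicle (horizontal), CPM per kb of exon on log axes, for each member with counts in both groups; triangles are ligands, circles receptors, and the line marks equal levels. Tnfsf11, Tnfsf8 and Tnfrsf8 lie farthest above the line, and Tnfrsf1b, at 13.7 and 41.1 CPM per kb, is the most abundant member called higher.

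Among TNF, lymphotoxin and their receptors, Tnf, Tnfrsf1b, Ltb and Tnfrsf14 rose with EPO. Of 8 members in this branch 7 were tested and 3 did not pass, and for all 7 tested every EPO library exceeded every Vehicle library. Over all genes tested, 12.9% were higher, and every EPO library lay above every Vehicle library for 22.9%. Tnf, the founding cytokine of the family (ENSMUSG00000024401, GRCm38 chromosome 17, 35199381 to 35202007), stood at 0.608, 1.09 and 1.28 CPM in Vehicle 1, 2 and 3 and at 2.45, 1.9 and 2.68 CPM in EPO 1, 2 and 3. It is a scarce transcript in these libraries, with 79 counts over the Vehicle group and 233 over the EPO group. The log2 fold change was 1.23 (SE 0.35, adjusted p = 0.0419). The call was narrow and was lost when any single library was left out, at an adjusted p of 0.136, 0.115 and 0.059 without Vehicle 1, 2 and 3 and 0.0706, 0.0681 and 0.108 without EPO 1, 2 and 3, and with library size alone as the scaling (0.0501).

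Tnfrsf1b, the second TNF receptor, which lacks a death domain and is found mainly on leukocytes and endothelium (ENSMUSG00000028599, chromosome 4, 145213463 to 145246870), had 43.5, 56.8 and 57 CPM in Vehicle 1, 2 and 3 and 196, 137 and 137 CPM in EPO 1, 2 and 3. The groups were wide apart and EPO 1 was the highest, as it was for macrophage markers. The log2 fold change was 1.58 (SE 0.19, adjusted p = 0.00292), and the call held under all 15 alternatives tested at the same threshold. Of the macrophage list 2 of 10 markers rose, Fcgr1 and Adgre1 (the latter not without Vehicle 1, adjusted p = 0.0587), and 8 had EPO above Vehicle in every library. These shares were 12.9% and 22.9% over all genes tested. The part of macrophages in the level of Tnfrsf1b was not tested. Tnfrsf1a, by comparison, had 158, 155 and 190 CPM in Vehicle and 257, 198 and 218 CPM in EPO, a log2 difference of 0.42 that missed the threshold (SE 0.15, adjusted p = 0.0866).

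Ltb, the membrane anchor of lymphotoxin made by lymphocytes (ENSMUSG00000024399, chromosome 17, 35194439 to 35196320), was at 2.52, 3.11 and 3.45 CPM in Vehicle and at 12.5, 4.14 and 12.2 CPM in EPO 1, 2 and 3. EPO 2 lay just above the Vehicle libraries and the other two well above. Its log2 fold change was 1.67 (SE 0.42, adjusted p = 0.0272). Without Vehicle 1, 2 or 3, EPO 1 or EPO 3 the adjusted p was 0.105, 0.0876, 0.0613, 0.0637 and 0.0695, and limma-voom gave 0.0724. In EPO 1, 2 and 3 the 10 B and plasma cell markers summed to 649, 335 and 494 CPM and the 10 T cell markers to 55.1, 36.3 and 55.7 CPM. Of the former, Jchain (62.8, 14.5 and 37 CPM) and Ighm (183, 67 and 237 CPM) were also lowest in EPO 2. Sdc1 (381, 240 and 184 CPM) was lowest in EPO 3 and Cr2 (0.307, 0.441 and 1.05 CPM) in EPO 1. The part of these cells in the level of Ltb was not tested. Ltbr, the lymphotoxin receptor of stromal cells, was at 72.7 to 74.4 CPM in Vehicle and at 159, 79.6 and 84.9 CPM in EPO (adjusted p = 0.164). Its log2 fold change of 0.56 was 0.15 without EPO 1.

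Tnfrsf14, the receptor HVEM, which binds LIGHT and lymphotoxin (ENSMUSG00000042333, chromosome 4, 154921933 to 154928563), had 4, 3.46 and 3.76 CPM in Vehicle and 6.97, 7.13 and 6.88 CPM in EPO. The EPO libraries lay close together, with an SD of 0.124 on a mean of 6.99 CPM. Its log2 fold change was 0.90 (SE 0.18, adjusted p = 0.0133), and the adjusted p was 0.0512 without Vehicle 1 and 0.0584 without Vehicle 2. The gene of its ligand LIGHT, Tnfsf14, had 0.348, 1.28 and 1.41 CPM in Vehicle and 2.79, 2.48 and 4.66 CPM in EPO. It narrowly missed the threshold (log2 fold change 1.69, SE 0.52, adjusted p = 0.0521) and passed in DESeq2 (0.00646) and limma-voom (0.0462).

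**Figure D3:**
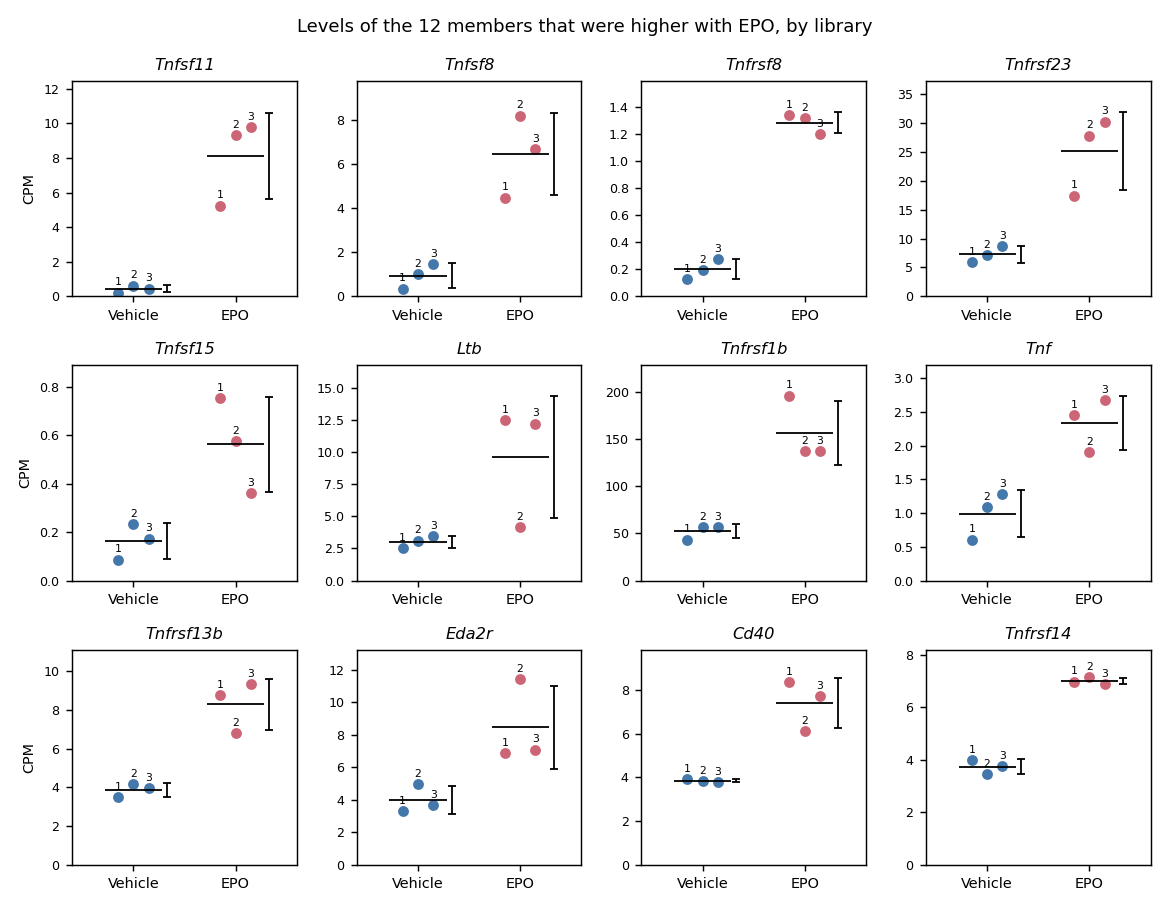
CPM in each library (points, numbered by library) of the 12 members called higher, with the group mean as a line and the SD as a bar; each vertical axis starts at 0. In every panel the 3 EPO libraries lie above the 3 Vehicle libraries, in proportion by the smallest margin for Ltb, where EPO 2 is at 4.14 and Vehicle 3 at 3.45 CPM.

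RANKL, the ligand Tnfsf11, showed the largest change in the family. RANKL drives the formation of osteoclasts from myeloid precursors through its receptor RANK (Tnfrsf11a), and osteoprotegerin (Tnfrsf11b) is the secreted decoy that blocks it. Tnfsf11 (ENSMUSG00000022015, chromosome 14, 78277445 to 78308043) was counted 5, 16 and 13 times in Vehicle 1, 2 and 3 and 188, 274 and 325 times in EPO 1, 2 and 3, or 0.217, 0.622 and 0.449 against 5.24, 9.3 and 9.77 CPM. Every EPO library held several times the level of the highest Vehicle library. The log2 fold change was 4.21 (SE 0.43, adjusted p = 0.00218), an 18.5-fold rise, and over the alternatives it ran from 3.89 to 4.54 with the call held in each at the 0.05 threshold.

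Neither the receptor nor the decoy passed the test. Tnfrsf11a stood at 48.8, 35.5 and 38.3 CPM in Vehicle and 39.9, 28.6 and 36.5 CPM in EPO (a log2 fold change of -0.22, SE 0.18, adjusted p = 0.398). Tnfrsf11b stood at 34.9, 56.3 and 57.4 CPM in Vehicle and 52.7, 43 and 50.9 CPM in EPO (a log2 fold change of -0.02, SE 0.20, adjusted p = 0.957). Both sets of groups overlapped. Per length, the decoy therefore exceeded the ligand 127, 71.8 and 102 times in Vehicle 1, 2 and 3 and 7.97, 3.67 and 4.13 times in EPO 1, 2 and 3, values that rest on the low Vehicle counts of Tnfsf11. The receptor exceeded the ligand 83.9, 21.3 and 31.9 times in Vehicle and 2.84, 1.15 and 1.4 times in EPO.

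Of 8 genes of an osteoclast list 7 were tested and 4 rose, where 12.9% of all genes tested did. Ctsk, a collagen-degrading cathepsin also made by fibroblasts, rose (log2 fold change 1.54, adjusted p = 0.00395), as did Ocstamp (2.04, 0.00816) and Dcstamp (2.14, 0.0385), which act in the fusion of precursors, and the transcription factor Nfatc1 (0.77, 0.0135). Dcstamp missed the threshold in the fits that left out Vehicle 1, Vehicle 3, EPO 1, EPO 2 and EPO 3 (adjusted p = 0.102, 0.113, 0.0568, 0.0978 and 0.0662), and Nfatc1 without Vehicle 1 (0.0674). Acp5, the tartrate-resistant phosphatase of osteoclasts and macrophages, was at 102, 150 and 112 CPM in Vehicle and 182, 117 and 109 CPM in EPO (adjusted p = 0.655). Atp6v0d2, a proton pump subunit of osteoclasts and macrophages, was at 65.5, 77.3 and 101 CPM in Vehicle and 78.9, 30.5 and 19.2 CPM in EPO (a log2 fold change of -0.92, SE 0.48, adjusted p = 0.202), and without EPO 1 it was called lower (0.00866). Oscar, a receptor of osteoclasts, had 0.217, 0.661 and 0.276 CPM in Vehicle and 0.725, 1.9 and 0.631 CPM in EPO, with overlapping groups (adjusted p = 0.122). Calcr, the calcitonin receptor that marks mature osteoclasts, had 0 counts in each Vehicle library and at most 0.102 CPM in EPO. Genes of cells known to make RANKL were followed as well. Of 8 genes of an osteoblast and chondrocyte list 6 were tested, 3 rose and 1 fell, where 12.9% and 10.1% of all genes tested did. Runx2, Acan and Sox9, which act in bone and cartilage formation, rose (log2 fold changes 2.07, 2.24 and 1.23), Sox9 at an adjusted p of 0.044 that was lost without Vehicle 1, 2 or 3, EPO 2 or EPO 3 (0.0979 to 0.153). Alpl, the phosphatase of mineralising osteoblasts, fell from 23.7, 24.6 and 22.8 to 10, 7.6 and 11.6 CPM (-1.28, adjusted p = 0.00387), while Bglap, the osteoblast gene of osteocalcin, was at most 0.0679 CPM in any library. Fibroblast genes summed to between 5920 and 7400 CPM in Vehicle and between 26500 and 33200 CPM in EPO. Most of this sum was the collagen gene Col1a1, with means of 3440 and 25700 CPM (log2 fold change 2.90, adjusted p = 0.00167). Of the 8 fibroblast genes 4 rose, Col1a1, Fap, Cthrc1 and Lum, the last not without any one library (adjusted p from 0.0556 to 0.0859). The other 4 did not pass, Pdgfra among them (log2 fold change 0.40, SE 0.14, adjusted p = 0.0812), and 2 of the 8 had negative log2 fold changes. The summed level of 10 T cell markers was 22.9, 24.8 and 46.5 CPM in Vehicle and 55.1, 36.3 and 55.7 CPM in EPO. The part of these cells in the level of Tnfsf11 was not tested.

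**Figure D4:**
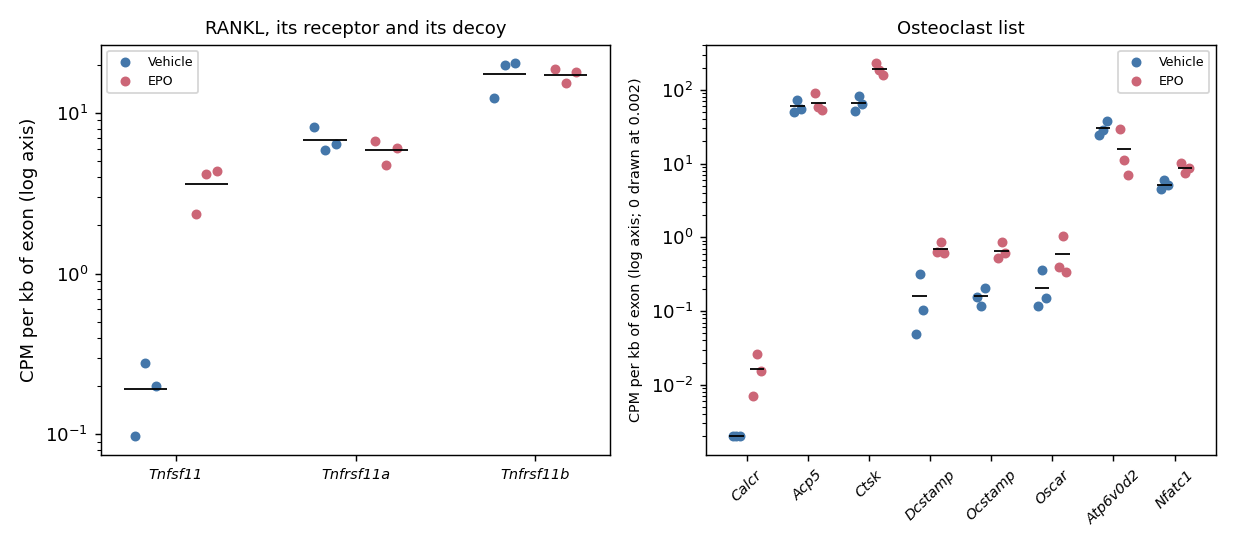
Level per length (CPM per kb of exon, log axes) in each library, with group means as lines, of Tnfsf11, Tnfrsf11a and Tnfrsf11b (left) and of the osteoclast list (right, where 0 is drawn at 0.002). On the left the groups of Tnfsf11 are far apart while those of Tnfrsf11a and Tnfrsf11b overlap, and on the right the EPO points of Ctsk, Dcstamp, Ocstamp and Nfatc1 lie above the Vehicle points.

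Costimulatory pairs, which pass signals between T cells and antigen-presenting cells, were uneven. Of 14 members 11 were tested and 4 rose, where 12.9% of all genes tested did: Tnfsf8, Tnfrsf8, Cd40 and Tnfsf15. CD30 ligand and its receptor CD30, the genes Tnfsf8 and Tnfrsf8, were the only ligand and receptor pair of this group in which both were called. Tnfsf8 (ENSMUSG00000028362, chromosome 4, 63831308 to 63861347) had 0.348, 1.01 and 1.48 CPM in Vehicle and 4.49, 8.22 and 6.7 CPM in EPO (a log2 fold change of 2.75, SE 0.49, adjusted p = 0.00877). Tnfrsf8 (ENSMUSG00000028602, chromosome 4, 145267137 to 145315164) was counted 3, 5 and 8 times in Vehicle 1, 2 and 3 and 48, 39 and 40 times in EPO 1, 2 and 3, that is 0.13, 0.194 and 0.276 against 1.34, 1.32 and 1.2 CPM (log2 fold change 2.64, SE 0.38, adjusted p = 0.00431). For both genes the groups were well apart, and the receptor was close to equal in the 3 EPO libraries. Tnfrsf8 passed the filter on low counts with 0 Vehicle and 3 EPO libraries at its minimum, and Tnfsf8 with 2 and 3. The distance between the groups is therefore in part a condition of being tested. In the fit that kept EPO 3 as the lone EPO library, Tnfsf8 (adjusted p = 0.0586) and Tnfrsf8 (0.0592) missed the threshold.

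Cd40, the receptor through which T cells activate B cells, macrophages and endothelium (ENSMUSG00000017652, chromosome 2, 165055627 to 165072948), was at 3.91, 3.85 and 3.8 CPM in Vehicle and 8.37, 6.14 and 7.73 CPM in EPO. The Vehicle libraries were almost equal and the lowest EPO library was well above them. The log2 fold change was 0.94 (SE 0.20, adjusted p = 0.0155), with 0.0658 without Vehicle 1 and 0.0599 without Vehicle 2. Its ligand, Cd40lg, a gene of activated helper T cells, summed to 8 counts with saline and 12 with EPO, too few for a test. Tnfsf15, the endothelial cytokine TL1A (ENSMUSG00000050395, chromosome 4, 63727084 to 63745113), was counted 2, 6 and 5 times in Vehicle 1, 2 and 3 and 27, 17 and 12 times in EPO 1, 2 and 3 (log2 fold change 1.74, SE 0.50, adjusted p = 0.043). This call was weak: it was lost with no filter on low counts (0.069), in DESeq2 (0.0726) and in limma-voom (0.0543), and without Vehicle 1, 2 or 3, EPO 1 or EPO 2 (0.154, 0.0829, 0.113, 0.093 and 0.1). The gene of its receptor, Tnfrsf25, stood at 5.65, 8.63 and 6.14 CPM in Vehicle and 4.18, 10.3 and 9.29 CPM in EPO, with overlapping groups (adjusted p = 0.692).

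The other costimulatory members did not pass. Tnfsf9, the ligand of the T cell receptor Tnfrsf9, had 1.04, 1.67 and 1.79 CPM in Vehicle and 3.88, 2.55 and 2.68 CPM in EPO (a log2 fold change of 1.01, SE 0.32, adjusted p = 0.0611, and 0.0274 in DESeq2), while Tnfrsf9 overlapped between groups (0.652 to 4.11 and 2.83 to 7.11 CPM, adjusted p = 0.329). Cd27, a receptor of T and B cells, had 0.304, 0.505 and 0.725 CPM in Vehicle and 1.28, 0.815 and 1.83 CPM in EPO (a log2 fold change of 1.34, SE 0.45, adjusted p = 0.0715). Its ligand Cd70 had 0 counts in all 6 libraries, which allows up to 0.13 CPM in Vehicle 1 and up to 0.0837 CPM in EPO 1 from counting error alone. The gene of OX40 ligand, Tnfsf4, was counted 0, 5 and 5 times in Vehicle 1, 2 and 3 and 8, 8 and 23 times in EPO 1, 2 and 3, too rarely for a test, and its receptor Tnfrsf4 was at 1.01 to 2.07 and 1.63 to 2.12 CPM (adjusted p = 0.707). Tnfsf18 and Tnfrsf18, the GITR pair of regulatory T cells, had log2 fold changes of -0.25 and 0.73 with SEs of 0.58 and 0.55. The counts of Tnfrsf18 and Tnfsf9 are uncertain, because a gene on the opposite strand overlaps each and the strand setting of the counting is not given in the sources used here. Of 10 T cell markers 3 rose (Trac, Cd5 and Foxp3), where 12.9% of all genes tested did. Cd3e, at 1.83, 2.22 and 4.8 CPM in Vehicle and 4.35, 3.23 and 5.56 CPM in EPO, overlapped. Trac missed the threshold without Vehicle 1, Vehicle 2, EPO 2 or EPO 3 (adjusted p from 0.0562 to 0.109), Cd5 without any one library but EPO 2 (0.0559 to 0.11) and Foxp3 without any of the 6 (0.0715 to 0.144). Of 8 dendritic cell genes 1 rose, Fscn1, and Flt3 did not pass (adjusted p = 0.103). The part of these cells in the levels above was not tested.

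Among the receptors of B cell survival factors, only Tnfrsf13b rose. Its product TACI binds the cytokines BAFF (Tnfsf13b) and APRIL (Tnfsf13), and it is best known on B cells. Tnfrsf13b (ENSMUSG00000010142, chromosome 11, 61126755 to 61149372) had 3.48, 4.16 and 3.97 CPM in Vehicle and 8.78, 6.82 and 9.32 CPM in EPO (a log2 fold change of 1.10, SE 0.20, adjusted p = 0.00991). The groups did not come near each other, and only the fit without Vehicle 1 lost the call (0.0521). The B cell restricted receptor Tnfrsf13c was at 1.09, 0.622 and 0.483 CPM in Vehicle and 0.865, 0.407 and 1.14 CPM in EPO (adjusted p = 0.848), and Tnfrsf17, the receptor of plasma cells, summed to 26 counts with saline and 18 with EPO, too few for a test. The ligand Tnfsf13b spread widely in both groups, at 9.78, 16.1 and 25.5 CPM in Vehicle and 20.7, 11.7 and 18 CPM in EPO (a log2 fold change of -0.03, SE 0.35, adjusted p = 0.966). In the same libraries 4 of 10 B and plasma cell markers rose, Sdc1, Ighm, Jchain and Mzb1, where 12.9% of all genes tested did, and 6 did not pass. Ighm, Jchain and Mzb1 missed the threshold without any one library but EPO 2 (adjusted p from 0.0563 to 0.0937, from 0.0556 to 0.116 and from 0.102 to 0.136). The part of these cells in the level of Tnfrsf13b was not tested. Tnfsf13 did not pass (-0.26, adjusted p = 0.551). Of its exonic sequence, 54.2% of runs of 100 bases also occur in the Tnfsf12-Tnfsf13 read-through gene Tnfsfm13, so its counts and those of Tnfsf12 (44.9%) depend on how shared reads were assigned, and Tnfsf13os, on the opposite strand of Tnfsf13, had 0.565 to 1.35 CPM in Vehicle and 0.837 to 0.917 CPM in EPO (adjusted p = 0.762).

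Death receptors and TRAIL receptors gave 1 call among 8 members, Tnfrsf23, a share of 12.5% where 12.9% of all genes were higher. Tnfrsf23 is a decoy receptor of TRAIL found in the mouse, which lacks the death domain (ENSMUSG00000037613, chromosome 7, 143665809 to 143685872). It was at 5.87, 7.15 and 8.7 CPM in Vehicle and 17.4, 27.8 and 30.2 CPM in EPO, with EPO 1 lowest of the EPO libraries. The log2 fold change was 1.79 (SE 0.25, adjusted p = 0.00402), and the call held under all 15 alternatives at this threshold. Its neighbours on chromosome 7, the decoy Tnfrsf22 and the orphan receptor Tnfrsf26, had 3.49 to 5.04 and 3.69 to 5.87 CPM in Vehicle and 5.97 to 9.54 and 6.3 to 10.7 CPM in EPO. They missed the threshold (log2 fold changes 0.85 and 0.82, adjusted p = 0.0593 and 0.0696) and passed without EPO 1 (0.0459 and 0.0432) and in DESeq2 (0.0177 and 0.0317). Of the runs of 100 bases in Tnfrsf22 transcripts, 8.97% are also in Tnfrsf23, so a small part of the counts of this pair could have been split between them. On the opposite strand, E230032D23Rik overlaps exons of Tnfrsf23 and Tnfrsf26 over 164 and 107 bases, so reads of these genes cannot be told apart there without strand.

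None of the other members of this branch passed the test. Fas, the death receptor of lymphocytes and many tissues, had 54.7, 43.9 and 48.5 CPM in Vehicle and 31.6, 37.6 and 42.8 CPM in EPO (a log2 fold change of -0.39, SE 0.15, adjusted p = 0.1), with each EPO library below each Vehicle library. Tnfrsf10b, the death receptor of TRAIL in the mouse, was at 17.1, 20 and 19.8 CPM in Vehicle and 9.45, 23.2 and 20.2 CPM in EPO, where EPO 1 stood apart (adjusted p = 0.834). The ligands Fasl (0.272 to 0.794 and 0.645 to 0.932 CPM) and Tnfsf10 (15.6 to 19.5 and 13.1 to 20.7 CPM) overlapped. Tnfrsf21, the death domain receptor DR6, had 22.2, 26.2 and 28.8 CPM in Vehicle and 50.4, 34.9 and 28.4 CPM in EPO (adjusted p = 0.11), and its log2 fold change of 0.56 was 0.28 without EPO 1.

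Of the tissue receptors, Eda2r rose. Eda2r, the receptor XEDAR of an ectodysplasin form and a target of p53 (ENSMUSG00000034457, chromosome X, 97333840 to 97377216), had 3.3, 4.98 and 3.69 CPM in Vehicle and 6.86, 11.4 and 7.09 CPM in EPO. EPO 2 was the highest, and it also had the most skeletal muscle RNA. The sum of 8 muscle markers was 1130, 2710 and 312 CPM in EPO 1, 2 and 3, while Eda2r was lower in EPO 1 than in EPO 3. The part of muscle in the level of Eda2r was not tested. Its log2 fold change was 1.08 (SE 0.28, adjusted p = 0.0302), and the call was lost without Vehicle 1, 2 or 3 or EPO 2 (0.118, 0.0519, 0.0864 and 0.0846). Eda, the gene of its ligand, is outside the rule and did not pass (-0.27, adjusted p = 0.495).

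Fn14, the gene Tnfrsf12a, which is induced by injury in many tissues, was at 97.9, 87 and 103 CPM in Vehicle and 53.7, 78.8 and 76.7 CPM in EPO. Each EPO library lay below each Vehicle library, and the difference missed the threshold (log2 fold change -0.46, SE 0.17, adjusted p = 0.0903). Its ligand TWEAK, Tnfsf12, had 21.9, 21.3 and 25.4 CPM in Vehicle and 24.3, 14 and 14.4 CPM in EPO (-0.38, SE 0.23, adjusted p = 0.274), and without EPO 1 it was called lower (0.0133). Ngfr, the neurotrophin receptor of nerves and Schwann cells, had 4.61, 1.4 and 41.1 CPM in Vehicle 1, 2 and 3 and 2.06, 3.46 and 4.63 CPM in EPO. Its log2 fold change of -2.22 (SE 1.07, adjusted p = 0.176) was 0.17 without Vehicle 3, the library in which Th (30.4 CPM) and the synaptic gene Snap25 (19.8 CPM, against at most 1.13 CPM in any other library) were high. Tnfrsf19, a receptor of skin and nervous system, overlapped (0.932 to 2.43 and 0.511 to 2.48 CPM).

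Of 65 listed genes of TNF receptor signalling, shedding and other family genes, 22 (33.8%) rose and 1, Traf5, fell, where 12.9% and 10.1% of all genes did. The list was chosen with earlier results of these data known, so its share is a description and not a test. Of the 22, 4 belong to the 8 genes of shedding and of the family outside the rule. The median log2 fold change of the list was 0.24. The count of higher genes was 7 without Vehicle 1, 11 without Vehicle 2, 13 without Vehicle 3 and 11 without EPO 1 and EPO 2. Of 8 genes of the death branch 6 rose. Ripk3, the kinase of necroptosis, was at 5.26, 7.39 and 8.14 CPM in Vehicle and 27.8, 27.9 and 31.5 CPM in EPO (a log2 fold change of 2.07, SE 0.19, adjusted p = 0.00156), the smallest p of the list. Its substrate Mlkl, which breaches the membrane, had 9.69, 11.8 and 11.1 CPM in Vehicle and 16.8, 20.8 and 23.6 CPM in EPO (0.91, SE 0.17, adjusted p = 0.0102, and 0.057 without Vehicle 1). Bid, which links death receptors to mitochondria, rose as well (0.99, adjusted p = 0.00769). Casp8, the initiator caspase of death receptors, was also higher (0.69, adjusted p = 0.0247), but lost its call without Vehicle 1, 2 or 3, EPO 2 or EPO 3 (adjusted p from 0.0651 to 0.114). Cflar, which restrains caspase-8, did not pass (108, 112 and 120 CPM in Vehicle and 71.2, 103 and 99.4 CPM in EPO).

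On the NF-kB side, 6 of 17 genes rose, where 12.9% of all genes tested did, with members of the slower noncanonical route among them. Map3k14, the kinase NIK that receptors such as Ltbr, Cd40 and Tnfrsf11a act through, had 9.91, 9.14 and 9.49 CPM in Vehicle and 24.5, 20.2 and 20.6 CPM in EPO (a log2 fold change of 1.19, SE 0.14, adjusted p = 0.00277). Its target Nfkb2 had 51.2, 43.9 and 55.4 CPM in Vehicle and 77.9, 78.1 and 91.7 CPM in EPO (0.72, SE 0.13, adjusted p = 0.00999, and 0.0535 without Vehicle 1). Relb, the partner of Nfkb2, did not pass (0.52, SE 0.19, adjusted p = 0.0813, and 0.0496 without EPO 2). Bcl3 and Nfkbie, both of the inhibitor family, rose to 2.71 and 2.79 times their Vehicle levels (adjusted p = 0.00277 and 0.00289). On the canonical route, the subunit Rel rose from 9.47, 9.76 and 7.87 to 13.4, 15.1 and 15.8 CPM (0.71, SE 0.16, adjusted p = 0.0189), and lost its call without Vehicle 1, 2 or 3, EPO 2 or EPO 3 (0.0533 to 0.0718). Tab2, an adapter of the kinase TAK1, rose (0.45, SE 0.10, adjusted p = 0.0202), again not without Vehicle 1, 2 or 3, EPO 2 or EPO 3 (0.0563 to 0.0912). The subunits Rela and Nfkb1 and the inhibitor Nfkbia did not pass, and had log2 fold changes of -0.17, 0.18 and -0.08 with SEs of 0.16, 0.11 and 0.20.

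Adapters and shedding enzymes also differed. Traf1, Tradd, Ripk1 and Traip rose among 14 adapters, where 12.9% of all genes tested did. Traf1 stood at 6.47, 8.13 and 9.39 CPM in Vehicle and 18.8, 13.7 and 16.6 CPM in EPO (a log2 fold change of 1.03, SE 0.20, adjusted p = 0.0112). Tradd and Ripk1 lost their calls without Vehicle 1 (adjusted p = 0.0716 and 0.0782), and Tradd also without Vehicle 2 (0.0608). Traip missed the threshold without any one library but EPO 1 (adjusted p from 0.0512 to 0.104). Traf5 fell from 19.3, 20.5 and 24.3 to 13.5, 12.8 and 14.5 CPM (-0.65, SE 0.14, adjusted p = 0.0175), with 0.0534, 0.0628 and 0.0555 without Vehicle 2, Vehicle 3 and EPO 2. Traf2, Traf3 and Fadd did not pass (adjusted p = 0.0746, 0.0647 and 0.826), although Traf2 did without EPO 1 (0.0312) and Traf3 without EPO 3 (0.0469). Adam17, the protease that releases TNF and its receptors from the membrane, stood at 48.2, 53.8 and 50.3 CPM in Vehicle and 95.6, 97.2 and 87.9 CPM in EPO (0.88, SE 0.11, adjusted p = 0.00306). Adam10, a related sheddase, rose by 0.65 (SE 0.12, adjusted p = 0.0111, and 0.0673 without Vehicle 1). Rhbdf2, a partner that Adam17 needs to mature, rose by 0.52 (SE 0.15, adjusted p = 0.0448), and missed the threshold without any one library (0.055 to 0.15) and in limma-voom (0.0507). Of the ubiquitin enzymes Tnfaip3, the NF-kB brake also called A20, had 14.5, 15 and 15.8 CPM in Vehicle and 36.6, 21.9 and 20.2 CPM in EPO (0.80, adjusted p = 0.0455), with 0.147, 0.127, 0.0986 and 0.0553 without Vehicle 1, 2 and 3 and EPO 2. Relt, an orphan receptor of the family outside the rule, rose from 2.04, 3.81 and 4.97 to 8.42, 8.39 and 13.8 CPM (1.49, adjusted p = 0.0243), and missed the threshold without Vehicle 1, Vehicle 2 or EPO 3 (0.0674, 0.08 and 0.0628).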

How the data were processed

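RNA from whole aorta was made into libraries with the NEBNext Ultra kit and sequenced as paired ends, per the labels' protocols. CASAVA 1.8, TopHat2 2.0.6 and the genome mm10 are named in the submitters' processing notes. Read assignment to genes (tool, annotation, strand) is not given in the sources used here. Values, as the authors deposited them, are raw counts per Ensembl gene, whole numbers with no normalization. Columns named Con were read as Vehicle. Symbols, coordinates (GRCm38, the assembly behind mm10) and exon lengths came from GENCODE M21, which matched 47224 of 47643 IDs.

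R 4.3.3 and edgeR 4.0.16 were used (filterByExpr, TMM, glmQLFit, glmQLFTest), with treatment alone in the model, two-sided p-values and Benjamini-Hochberg adjustment over 16522 genes. The SE is the log2 fold change over the root of its F statistic. The procedure was tested on simulated data. That simulation held far fewer changed genes than were called here, so it gives no error rate for these data. Alternatives were DESeq2 1.42.0, limma-voom (limma 3.58.1) with and without sample weights, other scalings and filters, an adjusted p under 0.1, a replicate block and libraries left out. Where a gene had 0 counts, up to 3 counts were allowed for, which covers counting error only.

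Members and gene lists were chosen with earlier results of these data known. By the rule for named genes, every called member is named, with up to 12 signalling genes of smallest p, partner adapters and, per marker list, its first gene and 2 of smallest p. Tnfaip3, Casp8, Rel, Tab2, Rhbdf2, Atp6v0d2, Oscar, Alpl, Sox9, Col1a1, Fap, Cthrc1, Lum, Mpo, Csf3r, Cflar, Rela, Relb, Nfkb1, Nfkbia, Traip, Relt, Eda, Nfatc1, Dcstamp, Acp5, Foxp3, Jchain, Mzb1, Th and Snap25 were named after their values were seen. Some listed genes enter the counts and are not reported singly here.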

Additional observations from a re-analysis of the deposited data

How the results depend on the processing

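With an adjusted p under 0.1, 19 members were called, 1 of them lower, and 3 signalling genes were lower. Without both EPO 1 and EPO 2, 5 members were called, all 5 higher, with 11 signalling genes higher and 0 lower. Sample weights in limma-voom gave 1 lower member. Signalling genes called lower numbered 2 with DESeq2 size factors, library size alone, the filter of 1 CPM in 3 libraries, DESeq2 and sample weights. Leaving out 1 library at a time gave 5 to 12 members changed, 5 to 11 higher and 0 to 1 lower, and 7 to 22 signalling genes higher and 0 to 3 lower. The 12 called members kept their direction in every alternative in which they were tested, and Tnfsf15 could not be fitted with the filter of 1 CPM or without EPO 1 and EPO 2. Tnfsf11, Tnfrsf1b and Tnfrsf23 kept their call in the 15 alternatives at the 0.05 threshold.

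The replicate block, a term for the number in the library names, gave 9 members and 2884 of all genes, and Ltb (adjusted p = 0.0564), Tnf (0.0696), Tnfsf15 (0.0951), Tnfaip3 (0.0775), Traip (0.0594), Tab2 (0.0545), Lum (0.0731), Adgre1 (0.0532), Foxp3 (0.087), Jchain (0.0533) and Mzb1 (0.102) were no longer called. Deviations of same-numbered libraries from their group means correlated by -0.0088, -0.0098 and 0.127 for numbers 1, 2 and 3. Vehicle 1 had its highest value with EPO 2 (0.12). With 3 libraries a group, these correlations cannot decide whether same-numbered libraries were paired.

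Signs that turned belong to genes that had not passed, and the cause was not tested. With limma-voom the log2 fold change was 0.02 for Tnfsf13b and 0.01 for Tnfrsf11b, with the replicate block 0.03 and 0.01, and without EPO 1 and EPO 2 it was 0.07 and 0.04. Sample weights gave 0.09 for Tnfrsf10b, 0.18 for Tnfsf18 and -0.03 for Acp5, and Tnfrsf10b and Acp5 were at 0.10 and -0.16 without EPO 1 and EPO 2. With 1 library left out at a time, the log2 fold change ran for Tnfrsf19 from -0.83 to 0.20, Tnfrsf4 from -0.08 to 0.38, Tnfrsf11b from -0.25 to 0.10, Tnfsf18 from -0.66 to 0.24, Ngfr from -2.78 to 0.17, Tnfsf13os from -0.49 to 0.09, Tnfrsf13c from -0.17 to 0.52, Tnfsf13b from -0.34 to 0.37, Tnfrsf10b from -0.35 to 0.18, Acp5 from -0.12 to 0.32, Tnfrsf25 from -0.01 to 0.51 and for Nfkbia from -0.28 to 0.07. The calls rest on 3 libraries a group, and members with few counts (Tnfsf15, Tnfrsf8, Tnfrsf18, Tnfsf18) are limited by counting error.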
